A study of Mus musculus with 9 samples.

Results

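Regulatory T cells (Tregs) of the gut were compared between Y3 and wild-type (WT) mice across genes that act at the cell surface, in signalling, in transcription and in metabolism. The comparison took the 3 Y3 arrays against the 3 WT arrays, 6 of the 9 arrays of the series, and kept array features paired with exactly 1 gene, with the brightest feature standing for each gene. Of 22180 genes in the table, 12792 were bright enough to be tested. The other 3 arrays came from Y3/CD103-/- mice and entered the model to share the estimate of the spread.

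Per the labels, all 3 groups were C57BL/6 mice, and the cells came from lamina propria of small and large intestine together. They were sorted by flow cytometry for red fluorescence from a reporter tied to Foxp3, which the labels give for every group. The genotypes are written WT, Y3 and Y3/CD103-/-, and no group lacked CD103 alone. The labels do not describe Y3. Since the series title names IL-2Rβ, Y3 was taken here to be a change in that chain. In published work on this receptor the name has been used for a β chain whose cytoplasmic tyrosines were replaced, but the labels do not state that these mice carry it. The age of the mice, the cells that carry the alteration and the number of mice behind each array are not given in the labels, so p-values measure only the spread between these arrays, which may be technical.

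IL-2 sustains the Treg lineage. Its receptor joins an α chain that raises affinity (CD25, gene Il2ra), the signalling β chain (CD122, gene Il2rb) and a common γ chain. Tyrosines in the tail of the β chain, once phosphorylated, recruit the transcription factor STAT5 and adaptors of other kinase pathways, and STAT5 supports Foxp3 and Il2ra. In the gut, Tregs restrain responses to food and microbes and sit beside the epithelium, to which CD103 (the integrin αE chain, gene Itgae) binds through E-cadherin.

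The genes of these labels were looked at first, on the log2 signal scale of the deposited values. Il2rb was at 9.27, 8.95 and 9.36 on the 3 WT arrays and at 8.50, 8.10 and 7.87 on the Y3 arrays. Every Y3 array lay under every WT array, with a difference of -1.04 ± 0.22 (standard error) that missed the threshold in limma (adjusted p = 0.0565). Il2ra was -0.65 apart in the same order of arrays (adjusted p = 0.079). Foxp3 read 9.37, 9.48 and 9.29 in WT and 9.52, 9.35 and 9.68 in Y3, overlapping sets whose difference of 0.14 had a 95% interval of -0.19 to 0.47 and became -0.028 when each array was centred on its median. Among markers of T cells and Tregs 9 were tested (Cd4, Cd3e, Cd3g, Foxp3, Il2ra, Ctla4, Ikzf2, Tnfrsf18 and Tnfrsf4). They averaged 9.23 to 9.33 on the WT arrays and 9.30 to 9.42 on the Y3 arrays, and 0 of these 9 passed in limma, with 3 at an unadjusted p under 0.05.

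The 3 Y3 arrays were not equally alike. Arrays 1 and 3 had a wider spread of values (SD 1.87 and 1.88) than array 2 (1.75) or the WT arrays (1.70 to 1.73). Over the tested genes they correlated at 0.984 with each other, against 0.973 for array 2 with either and 0.951 to 0.955 among WT arrays. Their medians over the tested genes, 4.60 and 4.61, exceeded those of Y3 array 2 (4.43) and of WT (4.34 to 4.41), so that the median tested gene was 0.15 higher in Y3. The counts of called genes leaned on those arrays and are given without each of them for all genes and for each class. Signal of other cells also moved with the groups. The 21 tested markers of intestinal epithelium had a median difference of -1.04, with 11 lower at unadjusted p under 0.05 and 0 called, and their mean ran from 5.06 to 6.03 in WT, 3.95 to 4.83 in Y3 and 4.08 to 5.92 in Y3/CD103-/-. None of these 23 markers on the array was at or under the array median on all 6 arrays. The 15 tested markers of macrophages, monocytes and dendritic cells had a median of -0.87, with means of 4.75 to 5.49 in WT and 4.28 to 4.37 in Y3, and 2 of the 19 on the array, Cd14 and Itgam, lay at or under the array median on all 6 arrays. At an unadjusted p under 0.05 in limma, 8 of the 15 were lower and 1 higher. Csf1r, the receptor that macrophages need for growth, lay above the array median on all 6, at 4.20, 4.68 and 4.88 in WT and 3.64, 3.32 and 3.79 in Y3. Cd68 went the other way, at 5.34, 5.67 and 5.19 in WT and 6.25, 5.97 and 6.29 in Y3. The part of these markers in the results below was not tested beyond a fit with the epithelial mean as a covariate, in which 10 genes passed. Since that mean itself differed between WT and Y3, a call lost in this fit does not measure the part of epithelial signal. In these bulk samples, fewer cells of a type and less RNA per cell cannot be told apart.

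Between Y3 and WT, 79 genes rose and 22 fell, 0.790% of the genes tested (0.618% upward and 0.172% downward). The rises ran from 0.76 to 3.48 and the falls from -0.88 to -2.43 on the log2 scale. At an unadjusted p under 0.05, 17.0% of genes lay to one side or the other (13.4% higher, 3.60% lower), 1719 genes against 460. That balance also depended on the scaling and the arrays, with 870 against 646 after quantile normalization, 650 against 990 with each array centred on its median, 1047 against 373 without Y3 array 1 and 933 against 330 without Y3 array 3. With centring the median over all tested genes was -0.02, and the counts at unadjusted p given for lists below are on the deposited scale, where that median was 0.15. Groups did not overlap for all 101 called genes, and for 23.9% of all genes tested. At the edge of the threshold, Cdkn1a, an inhibitor of the cell cycle, was just inside at 0.99 (adjusted p = 0.0497), and Aff3, Ehd1, Nlk and Reg4 were just outside (0.0505). The share of rises among the calls was 78.2%, but 59.0% after quantile normalization and 46.0% with each array centred on its median, so the balance of directions depends on the scaling. Of the 101 genes 68 passed after quantile normalization, 68 with centring, 12 without Y3 array 1, 38 without Y3 array 2, 8 without Y3 array 3, 71 without WT array 1, 40 without WT array 2 and 50 without WT array 3. Without Y3/CD103-/- array 1, 2 or 3, 84, 84 and 79 of them passed. No called gene changed sign in any of these fits. Where an array was left out this had to be so, since the groups did not overlap.

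**Figure D1:**
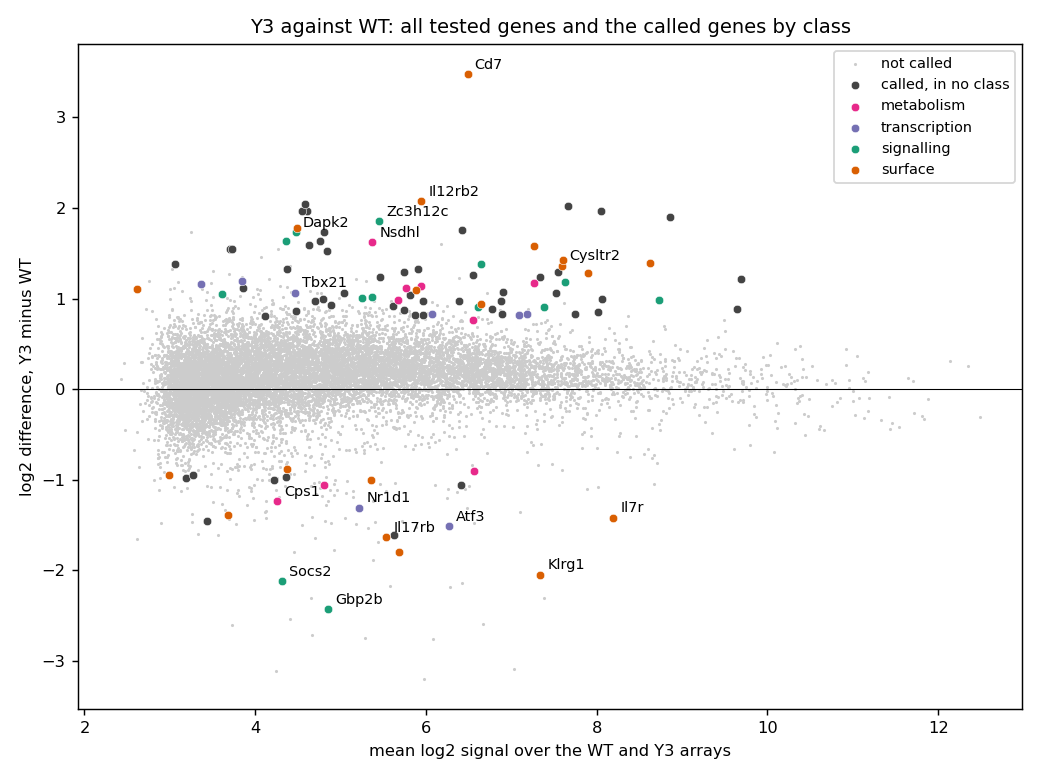
Log2 difference of Y3 minus WT (vertical) against the mean log2 signal of the 6 arrays (horizontal) for the 12792 genes tested. Each point is a gene, grey points did not pass, and coloured points are the 101 called genes by class. Cd7 stands above all other points at 3.48, and Gbp2b at -2.43 is the lowest of the called genes, while some grey points lie lower still.

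Promoters of leading genes were read to show the sequence that precedes genes that moved together. The windows run from 250 bases before to 50 bases after the gene start in RefSeq (GRCm38.p6), 5′ to 3′ on the gene's strand. Capitals mark TTCNNNGAA, the palindromic core bound by STAT factors, and TCACACCT, a core bound by T-box factors, found on either strand. Shown are the 3 risen genes and the 1 fallen gene of smallest p that hold either motif, predicted and other unnamed genes aside. Nkg7 encodes a protein of cytotoxic granules and starts within chr7:43436888-43437187 (+ strand). Il12rb2 encodes the signalling chain of the IL-12 receptor (chr6:67376139-67376438, - strand). Mctp2 encodes a membrane protein with C2 domains (chr7:72306546-72306845, - strand). Il7r encodes the IL-7 receptor α chain (chr15:9529827-9530126, - strand).
Nkg7: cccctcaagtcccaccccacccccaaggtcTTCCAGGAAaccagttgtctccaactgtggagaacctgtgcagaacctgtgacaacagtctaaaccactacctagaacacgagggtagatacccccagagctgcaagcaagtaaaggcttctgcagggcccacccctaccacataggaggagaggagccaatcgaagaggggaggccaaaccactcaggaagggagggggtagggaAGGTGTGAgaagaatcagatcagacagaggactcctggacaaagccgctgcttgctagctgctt
Il12rb2: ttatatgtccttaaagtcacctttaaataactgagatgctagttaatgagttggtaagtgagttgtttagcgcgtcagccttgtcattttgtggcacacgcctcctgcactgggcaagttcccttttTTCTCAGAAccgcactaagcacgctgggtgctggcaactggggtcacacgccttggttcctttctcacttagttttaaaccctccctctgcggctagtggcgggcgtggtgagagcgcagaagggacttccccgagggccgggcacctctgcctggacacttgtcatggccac
Mctp2: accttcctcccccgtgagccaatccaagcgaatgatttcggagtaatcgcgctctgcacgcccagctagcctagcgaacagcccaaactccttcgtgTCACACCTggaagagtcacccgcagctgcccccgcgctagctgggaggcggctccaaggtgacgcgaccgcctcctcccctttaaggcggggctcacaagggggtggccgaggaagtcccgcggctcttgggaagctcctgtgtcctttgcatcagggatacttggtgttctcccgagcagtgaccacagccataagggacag
Il7r: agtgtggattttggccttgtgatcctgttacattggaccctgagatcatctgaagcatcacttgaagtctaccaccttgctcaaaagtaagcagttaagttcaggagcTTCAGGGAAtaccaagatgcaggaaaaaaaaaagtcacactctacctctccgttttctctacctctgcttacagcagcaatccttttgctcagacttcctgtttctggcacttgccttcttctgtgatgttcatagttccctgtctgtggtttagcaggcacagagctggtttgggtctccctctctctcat
The first capitals begin 220, 123, 153 and 142 bases before the gene start in that order, and Nkg7 holds both motifs, the T-box core on the opposite strand. Of the risen genes 66 of 79 had a promoter in the table, and 12 of those 66 (18.2%) held the STAT core and 4 (6.06%) the T-box core. Of the fallen genes 16 of 22 had one, and 1 of those 16 (6.25%) held the STAT core and 0 the T-box core. Among the 9993 tested genes with a promoter the shares were 8.32% and 1.22%, and over every gene with a promoter in the table they were 9.55% and 1.48%. These shares describe letters in a window and were not tested.

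Among surface genes, receptors for cytokines made up the largest group of changes. Of 1089 surface genes on the array 559 were tested, and 11 rose and 8 fell, 3.40% of those tested against 0.790% of all genes. At an unadjusted p under 0.05, 69 were higher and 70 lower, and the median difference was 0.08 beside 0.15 for all genes (37 higher and 104 lower with centring). The list of cytokine receptor chains alone held 8 of these 19 calls. Of its 56 genes 39 were tested, 5 rose and 3 fell (20.5%), and its median was 0.09. At an unadjusted p under 0.05, 7 were higher and 11 lower. All 8 passed after quantile normalization and after centring too, where the list held 5 rises and 4 falls, and 5 rises and 7 falls, in that order. Without Y3 array 1 the list held 2 calls and without Y3 array 3 it held 1.

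The receptors that rose belong to the IL-12, IL-18 and IL-1 systems. Il12rb2 was at 4.58, 5.01 and 5.12 in WT and 7.10, 6.75 and 7.09 in Y3. The groups were 1.63 apart at their nearest arrays, and the rise was 2.08 ± 0.20 (adjusted p = 0.00161). The IL-18 receptor pairs a binding chain, Il18r1, with a signalling chain, Il18rap, and both rose. Il18rap went from 6.34, 6.72 and 6.38 to 8.09, 7.77 and 8.30, and Il18r1 from 7.40, 7.22 and 7.15 to 8.55, 8.33 and 8.73. In each case the lowest Y3 array was array 2 and still cleared WT, for rises of 1.58 ± 0.19 and 1.28 ± 0.19 (adjusted p = 0.00739 and 0.0124). Il1r2, the decoy receptor that binds IL-1 without signalling, read 6.46, 6.96 and 7.23 in WT and 8.20, 8.26 and 8.50 in Y3. WT array 1 was the lowest of the 6, and the groups stood apart by 1.43 ± 0.22 (adjusted p = 0.0165). Il1r1, the receptor that does signal, rose as well, by 1.78 (adjusted p = 0.0264), with Y3 array 3 at 6.03 above the other Y3 arrays at 4.95 and 5.17.

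The other 3 calls among cytokine receptor chains were falls. Il7r, through which IL-7 keeps resting T cells alive, was at 8.88, 8.82 and 9.0 in WT and 7.17, 7.92 and 7.37 in Y3. The WT arrays were close together, Y3 array 2 was the least reduced, and the fall was -1.42 ± 0.20 (adjusted p = 0.0124). Il17rb, a chain of the IL-25 receptor, fell by 1.63 and Il10ra, the ligand-binding chain of the IL-10 receptor, by 1.01 on the log2 scale (adjusted p = 0.0246 and 0.0393). Il7r is also listed among the markers of innate lymphoid cells, of which it was the only one of 9 tested to pass. The mean of that list was 5.19 to 5.39 in WT and 5.05 to 5.36 in Y3.

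The largest difference of the whole comparison was that of Cd7, an immunoglobulin-family receptor of T and NK cells. It stood at 4.72, 5.02 and 4.50 in WT and 8.44, 8.12 and 8.12 in Y3, a rise of 3.48 ± 0.20 or 11.1-fold (adjusted p = 3.61e-05). The Y3 arrays lay within 0.32 of each other, far above every WT array. Klrg1, an inhibitory lectin-like receptor that marks terminally differentiated cells and gut Tregs, was at 8.33, 8.34 and 8.41 in WT. On the Y3 arrays it read 6.10, 6.58 and 6.26, all well under WT, and the fall was -2.05 ± 0.30 (adjusted p = 0.0124). Cysltr2, a receptor for cysteinyl leukotrienes, read 6.97, 7.15 and 6.63 in WT and 8.33, 8.18 and 8.33 in Y3. No other gene passed among the 96 tested receptors for lipids, nucleotides, metabolites and amines, in which 10 were higher and 8 lower with unadjusted p under 0.05, and Cysltr2 rose by 1.36 ± 0.19 (adjusted p = 0.0119).

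Itgae was the only one of 59 tested integrins and adhesion molecules to pass, while 10 of the list were higher and 10 lower with unadjusted p under 0.05. It read 8.06, 7.87 and 7.85 in WT, 9.35, 9.11 and 9.51 in Y3 and 6.64, 6.05 and 6.86 in Y3/CD103-/-. All Y3 arrays exceeded all WT arrays, with a rise of 1.40 ± 0.21 (adjusted p = 0.0169), and the Y3/CD103-/- arrays lay below both. Haspin, a mitotic kinase gene that lies within Itgae and is named here after its values were seen, rose by 1.33 (adjusted p = 0.0296), and the overlap leaves the signal of these genes uncertain. Cxcr3, a chemokine receptor of T helper 1 (Th1) responses, rose by 1.10 (adjusted p = 0.0246), with the Y3 arrays at 6.45, 6.45 and 6.40. Of the 16 tested chemokine receptors 2 were higher and 5 lower with unadjusted p under 0.05, and the median was -0.10. Btla, an inhibitory partner of the TNF receptor family member HVEM, rose by 0.94 (adjusted p = 0.0475), and Nrp1, a semaphorin receptor used as a mark of thymic Tregs, fell by 0.88 on the log2 scale (adjusted p = 0.0497). Cd46, a regulator of complement, rose by 1.11 (adjusted p = 0.0298) from WT values at or under the array median to Y3 values of 3.34, 3.18 and 2.98, near it. It was bright enough to be tested only through arrays of the groups that carry Y3. Cxcr3 and Btla did not pass after quantile normalization (adjusted p = 0.0574 and 0.0911), nor did Cxcr3, Btla and Cd46 after centring (0.0522, 0.0954 and 0.0544).

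Of 27 tested genes of the major histocompatibility complex 3 fell and 0 rose. H2-Aa, one chain of a class II molecule that antigen-presenting cells carry, was at 5.87, 7.12 and 6.77 in WT and 4.34, 5.10 and 4.93 in Y3. The highest Y3 array was 0.78 under the lowest WT array, and the fall was 1.80 on the log2 scale (adjusted p = 0.0264). It belongs to the macrophage, monocyte and dendritic cell markers given above. With the epithelial covariate, which measures other cells, it differed by -1.60 (adjusted p = 0.203). H2-M10.4 and H2-M2, class I genes with close relatives whose signal the array may not separate, fell by 0.95 and 1.38 on the log2 scale, with all Y3 values at or under the array median.

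In 5 surface lists no gene passed, and the members of smallest p are given with the number of the list higher and lower with unadjusted p under 0.05. The TNF receptor family had 5 higher and 2 lower of 19. Fas, the death receptor, was 1.07 higher (adjusted p = 0.0555), and Tnfrsf10b and Tnfrsf8 differed by -0.80 and 0.55. In the SLAM and Siglec list (4 higher, 0 lower of 14), Cd96, Slamf7 and Siglec15 differed by 0.66, 0.82 and 0.51. The tetraspanin and MS4A list (2 higher, 5 lower of 32) had Ms4a7 at -1.35, Tspan5 at 0.75 and Tspan3 at 0.71. Plaur, Ly6e and Lypd9 led the LY6 list (2 higher, 1 lower of 20) with -0.81, 0.44 and 0.45. Among Fc receptors, activating adaptors and Toll-like receptors (1 higher, 5 lower of 23), Fcer1g, Tyrobp and Pigr differed by -0.87, -1.09 and -1.48, and the first pair are also myeloid markers. None of these 15 genes passed, with adjusted p from 0.0555 to 0.227.

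Of the 19 called surface genes Cd7 and Il12rb2 kept their call whichever of the 9 arrays was left out. Without Y3 array 3 the other 17 missed the threshold (adjusted p 0.0523 to 0.216), and without Y3 array 1 and Y3 array 2 there were 16 (0.085 to 0.191) and 10 (0.0572 to 0.126) that missed it. Leaving out WT arrays 1, 2 and 3 ended 4, 9 and 9 calls (at most 0.118), and leaving out a Y3/CD103-/- array ended 2 or 3 (at most 0.0645). With the epithelial covariate, Cd7, Il12rb2, Il18rap and Il7r passed.

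**Figure D2:**
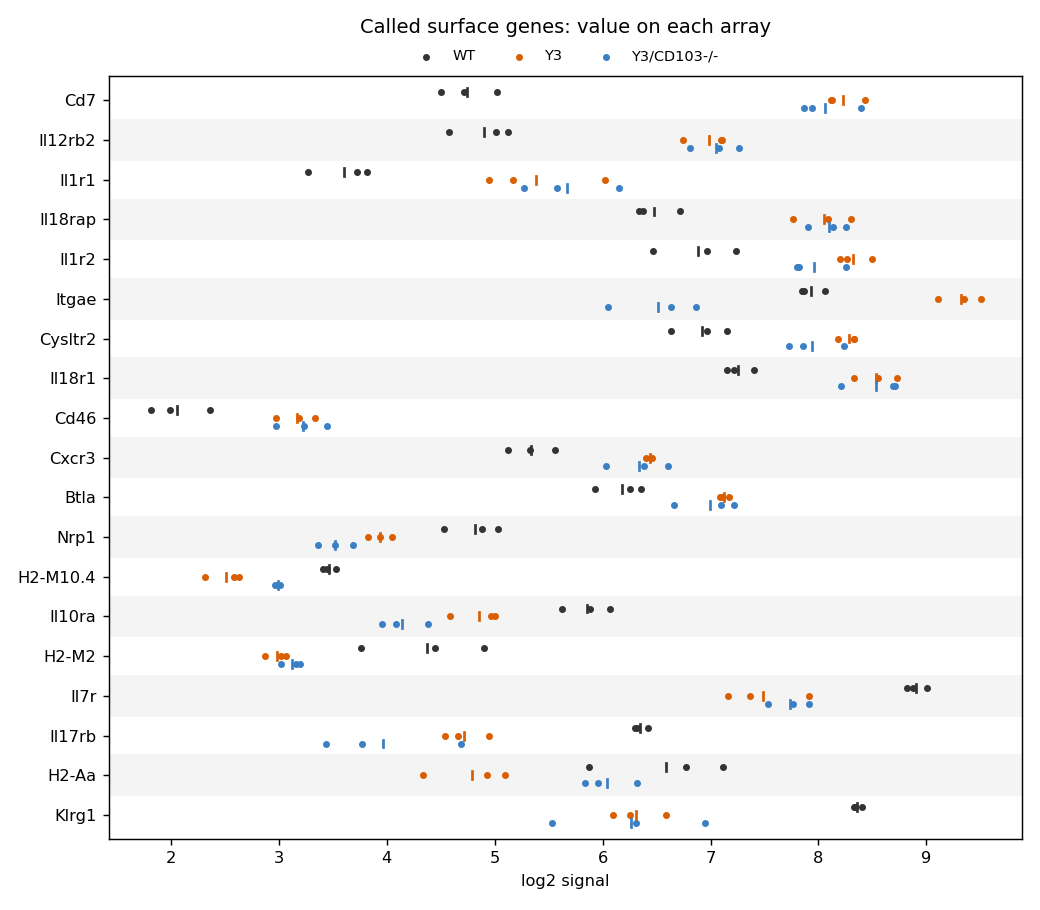
Log2 signal (horizontal) of the called surface genes on each array, with 1 row per gene, points for the 3 WT, 3 Y3 and 3 Y3/CD103-/- arrays and a bar at each group's mean. In every row the WT and Y3 points do not overlap, and the gap is widest for Cd7 (4.50 to 5.02 in WT, 8.12 to 8.44 in Y3).

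Signalling genes gave 13 calls, of which regulators of cell death were the most numerous. Of 1064 on the array 789 were tested, and 11 rose and 2 fell, 1.65% of those tested against 0.790% of all genes. At an unadjusted p under 0.05, 136 were higher and 28 lower, and the median was 0.17 (67 higher and 54 lower with centring). In the list of TRAF, IAP, caspase and BCL-2 proteins 42 of 48 genes were tested, and 4 rose (9.52% beside the same 0.790%), Casp4, Apaf1, Birc2 and Bcl2l2. After quantile normalization or centring the list held 3 calls, and without Y3 array 1 or Y3 array 3 it held 0 (8 and 9 higher, 1 lower in each, at unadjusted p under 0.05 in limma). Another 2 calls were the related RNases Zc3h12c and Zc3h12d, in a list of NF-κB kinases and negative regulators with 29 genes tested.

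Casp4, the inflammatory caspase that senses cytosolic lipopolysaccharide (caspase-11 in mice), was at 7.03, 6.90 and 7.17 in WT and 8.14, 8.17 and 8.33 in Y3. The arrays of each group lay within 0.28 of each other and the groups were separate, with a rise of 1.18 ± 0.15 (adjusted p = 0.00931). Apaf1, the scaffold of the apoptosome, read 5.82, 5.75 and 6.28 in WT and 7.35, 7.17 and 7.50 in Y3, a rise of 1.39 ± 0.18 (adjusted p = 0.0118). Birc2, a ubiquitin ligase that restrains death signalling and non-canonical NF-κB, read 8.24, 8.26 and 8.23 in WT and 9.14, 9.16 and 9.37 in Y3. The WT arrays were nearly equal and Y3 array 3 was the highest, for a rise of 0.98 ± 0.16 (adjusted p = 0.0225). Bcl2l2, an anti-apoptotic relative of BCL-2, rose by 1.05 (adjusted p = 0.0339). Casp4 and Apaf1 promote death and Birc2 and Bcl2l2 oppose it, so the list's genes that rose do not share 1 function.

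Cytokine feedback genes moved in opposite directions. Socs2, an inhibitor of cytokine signalling and a classical STAT5 target, read 5.52, 5.27 and 5.31 in WT and 2.83, 3.58 and 3.34 in Y3. Its WT arrays were close together, Y3 array 1 was the lowest, and the fall was -2.12 ± 0.29, 4.34-fold (adjusted p = 0.0119). A second feature of Socs2 differed by -0.75. Socs3, which inhibits signalling of the IL-6 family through STAT3, read 6.80, 7.15 and 6.85 in WT and 7.81, 7.61 and 8.10 in Y3. The groups did not overlap and the rise was 0.91 ± 0.17 (adjusted p = 0.0392), but it missed the threshold whichever of the 9 arrays was left out (0.0553 to 0.204), as well as after quantile normalization (0.0643), and its second feature differed by 0.49. The other 26 of 28 tested JAK, SOCS and STAT regulators did not pass.

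Interferon-induced genes gave 1 rise and 1 fall among 50 tested innate sensors and interferon-induced proteins. Gbp2b, a guanylate-binding GTPase, was at 5.54, 6.18 and 6.49 in WT and 3.60, 3.35 and 3.96 in Y3. Its highest Y3 array was 1.58 below the lowest WT array, and the fall of -2.43 ± 0.25 was the largest among called genes (adjusted p = 0.00248). Apol9a, a member of the apolipoprotein L family, read 3.81, 2.79 and 4.02 in WT and 5.19, 5.13 and 5.20 in Y3. WT array 2 lay well under the other WT arrays, and the rise was 1.63 ± 0.28 (adjusted p = 0.0264). Both have near copies in the mouse genome (other Gbp genes, Apol9b), so their signal may be shared.

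Further rises lay in T cell receptor and calcium signalling and among kinases and RNA-degrading regulators. Zc3h12c, one of the regnase RNases that destroy inflammatory messages, read 3.88, 5.10 and 4.60 in WT and 6.39, 6.27 and 6.48 in Y3. WT values spread over 1.22 while the Y3 arrays were tight, and the rise was 1.85 ± 0.28 (adjusted p = 0.0165). Its relative Zc3h12d rose by 0.91 (adjusted p = 0.0307). Dapk2, a calmodulin-dependent death-associated kinase, read 3.87, 3.0 and 3.96 in WT and 5.48, 4.89 and 5.65 in Y3. Y3 array 2 was the lowest Y3 array and WT array 2 the lowest WT array, and the rise was 1.73 ± 0.27 (adjusted p = 0.0185). Atp2a3, the calcium pump of the endoplasmic reticulum in blood cells, went from 4.72, 4.93 and 4.94 to 5.87, 5.91 and 5.86. Its Y3 arrays were nearly equal and the rise was 1.02 ± 0.15 (adjusted p = 0.0124). Themis, an adaptor that tunes T cell receptor signals through SHP-1, rose by 1.01 (adjusted p = 0.0298), the single call among 51 tested proximal kinases and adaptors, of which 16 were higher and 2 lower with unadjusted p under 0.05.

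No member passed in 6 other signalling lists, and for 5 of them the genes of smallest p are given as differences. RAS and MAP kinase genes were led by Rasgrf1 (1.18), Rassf2 (0.74) and Mapk8ip1 (0.76), with 15 of 94 higher and 3 lower with unadjusted p under 0.05. The PI3K, AKT and mTOR list had Sesn3, a leucine-sensing inhibitor of mTOR, at 0.62, Pik3r4 at 0.77 and Rps6kc1 at 0.66, with 12 of 63 higher and 2 lower. Ptpn11, the phosphatase SHP-2 that acts beneath the IL-2 receptor, was at 4.63, 5.03 and 5.08 in WT and 5.80, 5.69 and 5.79 in Y3. These groups did not overlap, but its difference of 0.85 did not pass (adjusted p = 0.075), and Ptprj and Ptpn23 differed by -0.63 and 0.88, with 3 of 28 phosphatases higher and 1 lower. Among G proteins and cyclic nucleotide enzymes, Pde2a, Grk6 and Pde7b differed by -0.66, 0.79 and -1.0, with 8 of 75 higher and 5 lower. In the ubiquitin ligase and TRIM list Fbxo45, Usp15 and Usp30 differed by 0.54, 0.53 and 0.83, with 20 of 139 higher and 2 lower.

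Of the 13 called signalling genes Gbp2b alone kept the call whichever of the 9 arrays was left out. Without Y3 array 1 or Y3 array 3 the other 12 missed the threshold (adjusted p 0.0508 to 0.167 and 0.0823 to 0.204), and without Y3 array 2 there were 7 (0.0554 to 0.103) that did. Leaving out WT arrays 1, 2 and 3 ended 4, 5 and 4 calls (at most 0.0814, 0.0972 and 0.1), and leaving out a Y3/CD103-/- array ended 1 (at most 0.0597). After quantile normalization 8 of the 13 passed, with Bcl2l2, Zc3h12d, Apol9a and Themis at adjusted p from 0.0526 to 0.084 beside Socs3. With the epithelial covariate Gbp2b and Socs2 passed.

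**Figure D3:**
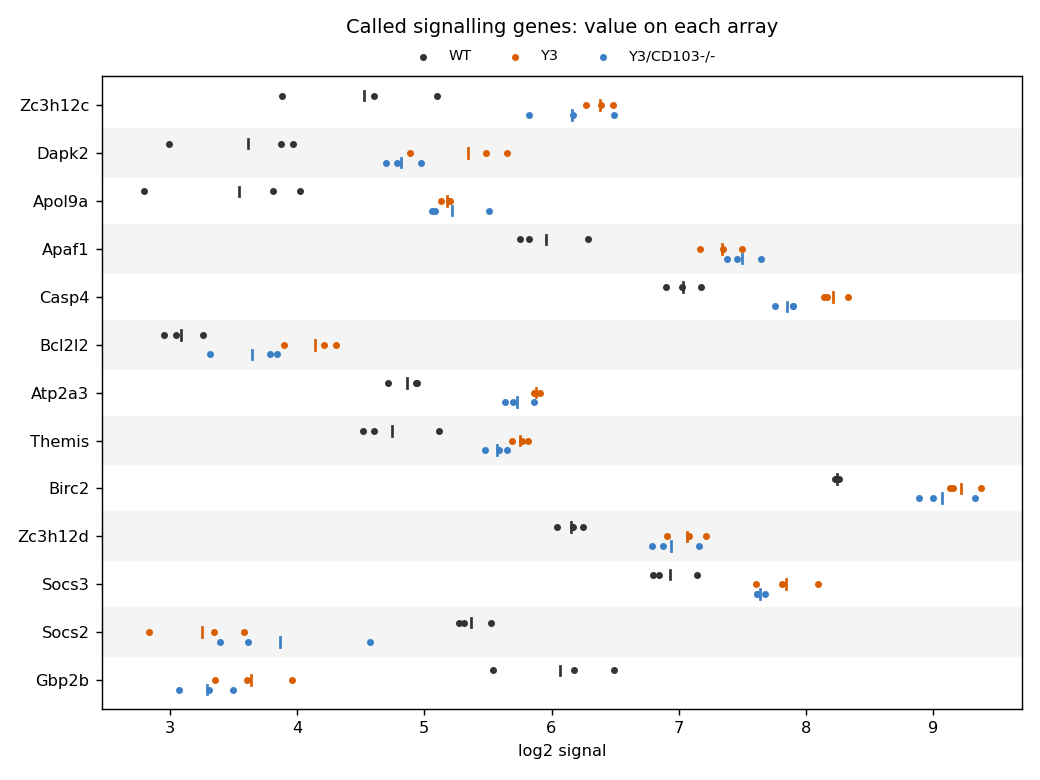
Log2 signal (horizontal) of the 13 called signalling genes on each array, with 1 row per gene, points for WT, Y3 and Y3/CD103-/- arrays and a bar at each group's mean. Socs2 and Gbp2b form the lowest rows, with Y3 points left of WT, while in the other 11 rows Y3 points lie to the right.

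Transcription genes gave 8 calls, 3 of them rises in factors of T helper and Treg lineages. Of 1057 genes of transcription on the array 772 were tested, and 6 rose and 2 fell, 1.04% of those tested, near the 0.790% of all genes. These counts cover the lists only, and the called regulators Trerf1, Nab1 and Hells lay outside them, among the genes of no class. At an unadjusted p under 0.05, 113 were higher and 27 lower, and the median was 0.14 (43 higher and 63 lower with centring). All 22 genes of the T helper and Treg lineage list were tested, and 3 rose (13.6%), Tbx21, Batf and Runx3. That list held 1 rise and 1 fall under either scaling, and 0 calls without Y3 array 1 or Y3 array 3 (4 and 5 higher, 1 lower in each, at unadjusted p under 0.05 in limma).

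Tbx21 encodes T-bet, the factor that drives Th1 genes and, in Tregs, Cxcr3. It read 3.93, 4.15 and 3.73 in WT and 5.06, 4.79 and 5.15 in Y3. Array 2 was the lowest of the Y3 arrays and cleared the highest WT array by 0.64, and the rise was 1.06 ± 0.18 (adjusted p = 0.0238). Batf, an AP-1 partner of tissue Tregs, was at 6.88, 6.61 and 6.83 in WT and 7.68, 7.60 and 7.53 in Y3. The rise of 0.83 ± 0.15 (adjusted p = 0.032) did not pass after quantile normalization or centring (0.0678 and 0.0846). Runx3, which works with T-bet and represses Cd4 in CD8 T cells, read 5.66, 5.83 and 5.47 in WT and 6.64, 6.26 and 6.57 in Y3. Its rise of 0.83 ± 0.16 (adjusted p = 0.0455) missed the threshold whichever of the 9 arrays was left out (0.0596 to 0.221), and after quantile normalization (0.0759) or centring (0.0688). The levels of the other 19 lineage factors, Foxp3 among them, did not pass, and 6 genes of the list were higher and 2 lower with unadjusted p under 0.05.

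Repressors and stress factors made up the rest. Gfi1b, a zinc finger repressor best known in red cell and platelet precursors, was at 3.60, 3.13 and 3.01 in WT and 4.33, 4.57 and 4.43 in Y3. WT array 1 was the highest WT value and still 0.73 under Y3, and the rise was 1.20 ± 0.18 (adjusted p = 0.0161). Nr1d1, the circadian repressor REV-ERBα that also limits Th17 genes, read 5.75, 6.23 and 5.63 in WT and 4.43, 4.66 and 4.59 in Y3. Its fall of -1.31 ± 0.20 (adjusted p = 0.0165) was the only call among 16 tested clock factors and among 28 tested nuclear receptors. Atf3, a stress-induced bZIP factor, went from 6.60, 7.35 and 7.12 to 5.33, 5.96 and 5.25, with Y3 array 2 the least reduced. It fell by 1.51 on the log2 scale (adjusted p = 0.0387). Etv6, an ETS family repressor, read 6.70, 6.71 and 6.63 in WT and 7.52, 7.32 and 7.64 in Y3, a rise of 0.82 ± 0.16 (adjusted p = 0.0497) that did not pass after quantile normalization or centring (0.0926 and 0.0846). Zfp101, a zinc finger protein, read 3.04, 2.48 and 2.85 in WT, at or under the array median, and 3.97, 3.78 and 4.09 in Y3, a rise of 1.16 (adjusted p = 0.0376) that did not pass after centring (0.0683). It was the only call among 269 tested proteins named Zfp, Zscan or Zkscan, 0.372% of them.

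The list of chromatin regulators gave no call. Hells, a chromatin remodelling helicase outside that list, rose and is given below with the genes of no class. Of the 150 tested in the list, 28 were higher and 1 lower with unadjusted p under 0.05, and the median was 0.23 beside 0.15 for all genes. After quantile normalization and after centring 9 were higher and 3 lower, with medians of 0.09 and 0.06, and without Y3 array 3 there were 13 higher and 1 lower. Hdac8, a histone deacetylase, was at 3.35, 2.99 and 3.57 in WT and 4.08, 4.15 and 4.46 in Y3. The groups did not overlap, and the difference of 0.92 lay just outside the threshold (adjusted p = 0.0513). Sirt2 and Sirt7, deacetylases that use NAD, differed by 0.77 and 1.06 (adjusted p = 0.0601 and 0.0781). In the NF-κB and SMAD list Smad5, Nfkbib and Nfkb2 differed by 0.57, 0.40 and 0.42, with 6 of 21 higher and 0 lower with unadjusted p under 0.05 (0 higher and 1 lower with centring). Among bHLH, MYC and ID factors (2 higher, 4 lower of 38) the genes of smallest p were lower: Mlxipl, a carbohydrate-sensing factor, by -0.86, Epas1, an oxygen-sensing factor, by -0.61 and Hes1, a Notch target, by -1.13 (adjusted p = 0.0677, 0.097 and 0.1).

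None of the 8 called transcription genes kept the call whichever array was left out. Without Y3 array 1 or Y3 array 3 all 8 missed the threshold (adjusted p 0.085 to 0.215 and 0.0994 to 0.244), and without Y3 array 2 there were 7 (0.0501 to 0.0852) that did. Leaving out WT arrays 1, 2 and 3 ended 2, 6 and 6 calls (at most 0.0806, 0.101 and 0.109), and leaving out a Y3/CD103-/- array ended 2 or 3 (at most 0.068). With the epithelial covariate none passed, Tbx21 coming nearest (0.0547). In that fit Tbx21, Runx3, Etv6 and Zfp101 differed by 1.30, 0.93, 0.89 and 1.35, each more than without it. Gfi1b, Batf, Nr1d1 and Atf3 differed by 1.11, 0.74, -1.04 and -1.23, each less in size than without it.

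Metabolic genes gave 9 calls. Of 1585 on the array 1038 were tested, and 6 rose and 3 fell, 0.867% of those tested beside 0.790% of all genes. At an unadjusted p under 0.05, 117 were higher and 48 lower, and the median was 0.14 (41 higher and 98 lower with centring). The calls were scattered over 6 of 15 lists, and no list held more than 2.

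Among lipid and glycan enzymes, Nsdhl, which removes a carboxyl group from sterol intermediates on the way to cholesterol, was at 5.27, 4.37 and 4.03 in WT and 6.12, 6.19 and 6.23 in Y3. WT arrays spread over 1.24 and the Y3 arrays were nearly equal, with a rise of 1.62 ± 0.26 (adjusted p = 0.0209), the single call among 30 tested genes of sterol and fatty acid synthesis. B4galnt4, a glycosyltransferase, read 5.51, 5.60 and 5.03 in WT and 6.58, 6.35 and 6.62 in Y3. Chst11, a sulfotransferase of chondroitin chains, read 5.58, 5.12 and 4.89 in WT and 6.23, 6.32 and 6.42 in Y3. Both groups of arrays were separate for each gene, and the rises were 1.14 ± 0.18 and 1.12 ± 0.20 (adjusted p = 0.0192 and 0.0295), of which Chst11 did not pass after quantile normalization or centring (0.0712 and 0.0522). Plcb4, a phospholipase C that cuts phosphoinositides, went from 5.03, 5.05 and 5.47 to 5.98, 6.28 and 6.25. It rose by 0.98 ± 0.18 (adjusted p = 0.0347), but not after quantile normalization or centring (0.102 and 0.091). Ugcg, which makes glucosylceramide, read 7.11, 7.0 and 6.92 in WT and 6.36, 6.06 and 5.91 in Y3, and fell by 0.90 on the log2 scale (adjusted p = 0.0387).

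Proteolysis, urea cycle, metal and polyamine genes held the remaining calls. Ctsw, a cysteine protease of cytotoxic lymphocytes listed with lysosome genes, was at 6.72, 6.75 and 6.56 in WT and 7.96, 7.77 and 7.81 in Y3. Both groups were tight and far apart, with a rise of 1.17 ± 0.17 (adjusted p = 0.0124). Cps1, the first enzyme of the urea cycle and abundant in liver and intestinal epithelium, read 4.90, 5.20 and 4.51 in WT and 3.98, 3.56 and 3.37 in Y3. It fell by 1.23 on the log2 scale (adjusted p = 0.0393). With the epithelial marker mean as a covariate, a fit in which 10 of the 101 called genes passed, it differed by -0.85 (adjusted p = 0.252). That mean was lower in Y3 too, and its part in the fall of Cps1 was not tested further. Mt1, a metal-binding metallothionein, read 4.91, 5.73 and 5.37 in WT and 4.14, 4.38 and 4.31 in Y3, a fall of 1.06 on the log2 scale (adjusted p = 0.0431). Oaz2, an antizyme that targets ornithine decarboxylase for destruction, rose by 0.76 (adjusted p = 0.0455), the smallest rise among called genes. It missed the threshold whichever of the 9 arrays was left out (0.0526 to 0.221), and after quantile normalization (0.088) or centring (0.101), and its second feature differed by 0.07.

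Lists of central energy metabolism gave no call. For glycolysis and linked sugar enzymes 6 of 45 tested genes were higher and 0 lower with unadjusted p under 0.05, with a median of 0.17. Gbe1, Ogt and Pgm2 had the smallest p, at 0.62, 0.52 and 0.58. Oxidative phosphorylation and the TCA cycle had 12 of 111 higher and 1 lower and a median of 0.17, led by Ndufs4 (0.52), Cox17 (0.50) and Me3 (0.56). Those medians stand beside the 0.15 of all genes, and with centring 3 glycolysis genes were higher and 5 lower, and 2 and 6 of the oxidative list. The 206 tested solute carriers, which move nutrients and ions across membranes, had 23 higher and 7 lower and a median of 0.09. Slc23a1, a vitamin C transporter, differed by 0.76, Slco2b1 by -1.44 and Slc15a2, a peptide transporter, by 0.99 (adjusted p = 0.0558, 0.0781 and 0.1). Among 27 ABC transporters (2 higher, 3 lower) Abcc3, Tap2 and Abcb1b differed by -0.61, 0.62 and 0.79.

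Large differences that did not pass were found in metabolic genes typical of enterocytes. Fabp2, the intestinal fatty acid-binding protein, was at 5.87, 7.93 and 6.16 in WT and 4.03, 3.79 and 3.91 in Y3. WT array 2 stood far above the other WT arrays, and the difference of -2.74 ± 0.57 did not pass (adjusted p = 0.0557). Cyp2c55, a cytochrome P450 of the large intestine, read 6.65, 8.59 and 7.47 in WT and 3.65, 4.41 and 5.07 in Y3. It differed by -3.19 ± 0.66 (adjusted p = 0.0555), and Ces2e, a carboxylesterase, and Rbp2, a retinol-binding protein of enterocytes, by -1.44 and -1.11. In their list of retinoid, steroid and xenobiotic enzymes 4 of 88 were higher and 8 lower with unadjusted p under 0.05. Fabp2 is itself among the epithelial markers given above. In the fatty acid list (6 higher, 4 lower of 68) Dgat1, which makes triglyceride, and Crot differed by 0.65 and 0.58. For 1-carbon and nucleotide enzymes (8 higher, 2 lower of 70) Rrm2b, Gart and Mthfd2 differed by 0.55, 0.68 and 0.74, and for NAD metabolism (3 higher, 0 lower of 20) Nmrk1, Parp14 and Parp8 by 1.46, 0.58 and 0.53. Heme synthesis genes led the iron list (4 higher, 0 lower of 23), with Urod, Ppox and Fech at 0.61, 0.48 and 0.59.

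None of the 9 called metabolic genes kept the call whichever array was left out. Without Y3 array 1 or Y3 array 3 all 9 missed the threshold (adjusted p 0.0878 to 0.202 and 0.0939 to 0.221), and without Y3 array 2 there were 7 (0.0776 to 0.107) that did. Leaving out WT arrays 1, 2 and 3 ended 4, 7 and 4 calls (at most 0.0845, 0.101 and 0.103), and leaving out a Y3/CD103-/- array ended 3 or 4 (at most 0.068). With the epithelial covariate none passed, B4galnt4 coming nearest (0.088). In that fit B4galnt4 and Chst11 differed by 1.32 and 1.20, more than without it, and the other called metabolic genes differed less in size.

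**Figure D4:**
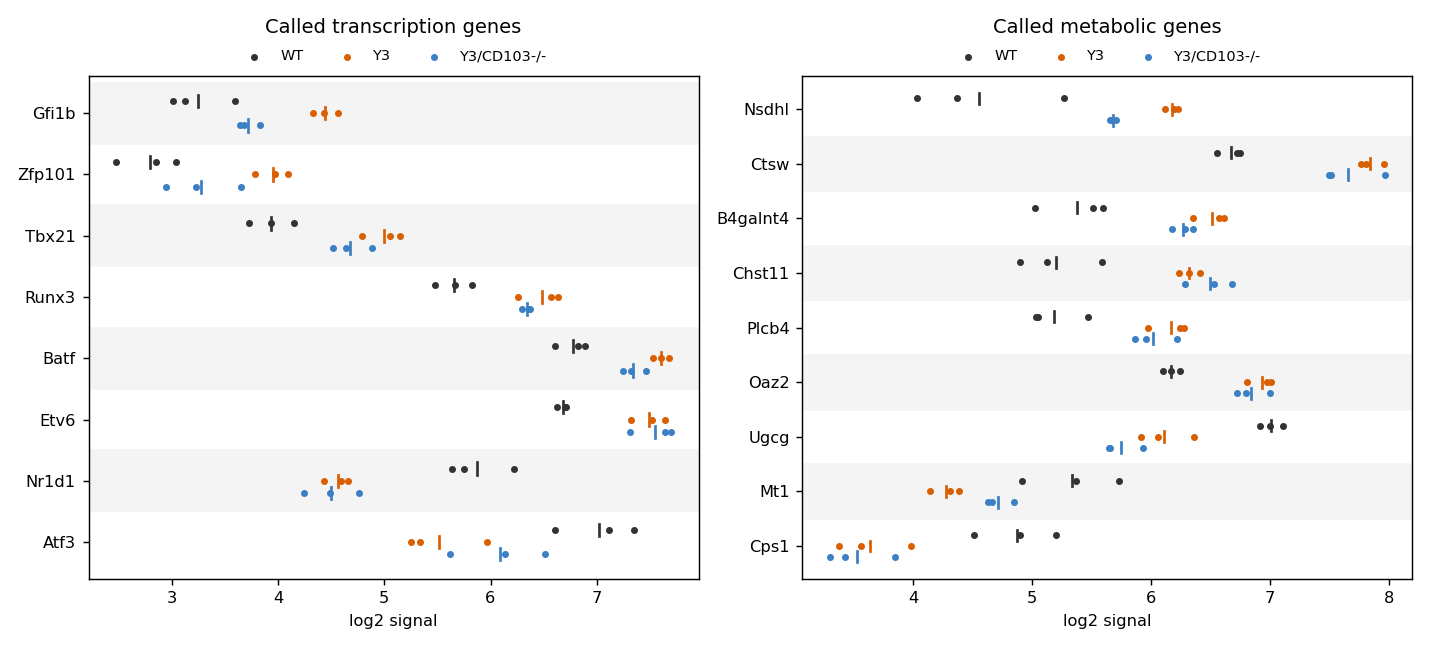
Log2 signal (horizontal) of the 8 called transcription genes (left) and the 9 called metabolic genes (right) on each array, with points for WT, Y3 and Y3/CD103-/- arrays and a bar at each group's mean. WT and Y3 points are separate in all rows. For Nsdhl the WT points run from 4.03 to 5.27 while the Y3 points run from 6.12 to 6.23.

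Another 52 called genes belonged to none of these classes, 45 higher and 7 lower, and 13 of them were predicted genes, small RNAs or receptor family members that are not named. Those known from granules and as secreted factors are given first, and this grouping was made after their values were seen. Nkg7, a granule membrane protein of cytotoxic cells, was at 6.41, 6.81 and 6.72 in WT and 8.78, 8.62 and 8.63 in Y3. Its Y3 arrays lay within 0.16 of each other and above every WT array, a rise of 2.03 ± 0.17 (adjusted p = 0.00121). Ccl5, a chemokine of activated T cells, read 7.78, 7.76 and 8.19 in WT and 9.90, 9.76 and 9.78 in Y3, a rise of 1.91 ± 0.18 (adjusted p = 0.00161). Gzma and Gzmb, serine proteases of cytotoxic granules, rose by 1.22 and 0.89 from levels of 8.95 to 9.24 in WT. Ifng, the Th1 cytokine interferon γ, read 3.72, 4.14 and 3.96 in WT and 5.53, 5.47 and 5.72 in Y3. All Y3 arrays lay above all WT arrays, and the rise was 1.63 ± 0.23 (adjusted p = 0.0119). Xcl1, a chemokine that attracts cross-presenting dendritic cells, rose by 1.97, with Y3 at 9.10, 9.31 and 8.70.

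Cytotoxic genes are also made by CD8, γδ and NK cells, so markers of those cells were read beside them. Of 13 such markers on the array 9 were tested, Nkg7, Gzma and Gzmb rose, and 4 were higher and 1 lower with unadjusted p under 0.05. The mean of the tested markers was 5.31 to 5.56 in WT and 5.80 to 5.97 in Y3. That mean includes the called genes Nkg7, Gzma and Gzmb themselves, so its rise is no separate reading of these cell types. Of the 13, Klrb1c, Klrd1, Klrk1 and Klre1 were at or under the array median on all 6 arrays. Ncr1, a receptor that defines NK cells, lay above it on all 6, at 3.72, 3.75 and 4.14 in WT and 3.34, 4.02 and 3.69 in Y3, overlapping sets. Prf1, the granule protein perforin, read 5.03, 4.59 and 4.33 in WT and 5.75, 4.88 and 5.74 in Y3, and Tyrobp, an adaptor of NK and myeloid cells, 4.43, 6.10 and 5.38 and 3.92, 4.25 and 4.49. Cd8a read 3.05, 3.10 and 3.0 in WT and 3.11, 3.22 and 3.21 in Y3, beside array medians of 3.15 to 3.23. Cd8b1 read 4.62, 4.55 and 4.24 in WT and 4.69, 3.41 and 4.57 in Y3, overlapping sets.

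Klk1b27, a kallikrein with near-identical relatives whose signal may be shared, rose by 1.55 (adjusted p = 0.00297) from WT values at or under the array median. Mctp2 rose by 1.97, with Y3 at 5.55, 5.58 and 5.46 and WT at 3.40, 3.75 and 3.54, well apart. Trerf1, a transcription regulator of steroid genes, rose by 1.30 and Nab1, a corepressor of EGR factors, by 1.08. Ppm1d, the p53-induced phosphatase WIP1, rose by 1.26, Hells, a chromatin remodelling helicase, by 1.38, and Hip1, a clathrin adaptor, by 1.06. Tff1, a secreted trefoil peptide of stomach mucosa, rose by 2.05. C2cd4b rose by 1.55, though its second feature differed by 0.33, and Ostf1 and Podnl1 rose by 1.07 and 0.97. Apobec3, a restriction factor of retroviruses, fell by 1.06, Pp2d1 by 0.98 and Pxdc1 by 1.0 on the log2 scale. Rab27a, which docks secretory granules, Baiap3, a C2-domain protein of vesicle fusion, and Cst7, an inhibitor of granule proteases, rose by 0.98, 0.93 and 0.85 and were chosen after their values were seen. Of these, Baiap3 and Cst7 did not pass after quantile normalization (0.0761 and 0.0574) or centring (0.0629 and 0.0994).

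Of these 52 genes Nkg7, Ccl5, Klk1b27 and 1 predicted gene kept the call whichever of the 9 arrays was left out. Without Y3 arrays 1, 2 and 3 there were 44 (adjusted p 0.0815 to 0.215), 32 (0.0542 to 0.112) and 47 (0.0523 to 0.236) that missed the threshold. Leaving out WT arrays 1, 2 and 3 ended 16, 34 and 28 calls (at most 0.0897, 0.106 and 0.115), and leaving out a Y3/CD103-/- array ended 7 to 11 (at most 0.0712). After quantile normalization 32 of the 52 passed, after centring 33, and with the epithelial covariate those same 4.

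Within the Y3 group the called genes did not differ from WT equally on each array. Of the 101, the smallest difference from the WT mean was on array 2 for 62 genes, on array 1 for 21 and on array 3 for 18. The largest was on array 3 for 49, on array 1 for 38 and on array 2 for 14. The median size of the difference in the called direction was 1.20, 1.11 and 1.24 on arrays 1, 2 and 3, and 68, 58 and 76 genes reached 1 log2 unit. Each of the 101 differed in the called direction on each Y3 array, which follows from WT and Y3 arrays that did not overlap. Xcl1 and Tff1 were highest on array 2, at 9.31 and 6.13, and Gbp2b was lowest there, at 3.35. With arrays 1 and 3 averaged as 1 sample 12 genes were called, among them Cd7, Il12rb2, Il18rap, Gbp2b, Nkg7, Ccl5, Klk1b27, Mctp2, Gzma and Tff1.

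**Figure D5:**
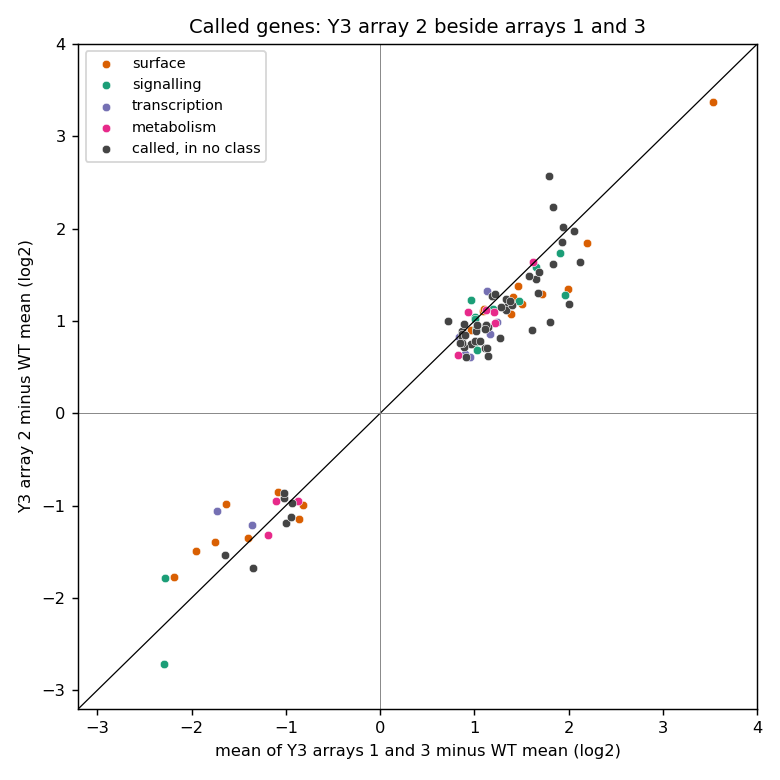
Difference of Y3 array 2 from the WT mean (vertical) against the mean difference of Y3 arrays 1 and 3 (horizontal) for the 101 called genes, in log2 units, coloured by class, with the line of equality. All points lie to the lower left or upper right of 0, and most sit nearer 0 on the vertical axis than the line, since array 2 had the smallest difference for 62 genes.

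The second group that carries Y3 shows where the same genes stood. Against Y3, Y3/CD103-/- differed in 1 of the 101 genes in limma, Itgae (-2.81, adjusted p = 0.000679), and 100 did not pass. Against WT, 54 of the 101 passed in Y3/CD103-/-. Some stood nearer WT there, of which Nemp2, Pxdc1 and the histone kinase Haspin were chosen after their values were seen. Nemp2 and Pxdc1 differed from WT by 0.09 and -0.27 without passing in limma (adjusted p = 0.85 and 0.52). Their differences from Y3, -0.78 and 0.73, did not pass either (adjusted p = 0.265 and 0.308). Haspin read 5.36, 4.72 and 5.46 there, beside WT arrays at 5.62, 5.05 and 5.07 and Y3 arrays at 6.76, 6.42 and 6.54. The difference of Haspin from WT was -0.06, and that from Y3, -1.39, did not pass (adjusted p = 0.182). Haspin lies within Itgae, the gene of the CD103 chain that this group lacks, so its level there is uncertain. Cd7 read 7.86, 7.94 and 8.39 and Klrg1 6.31, 6.95 and 5.53 in Y3/CD103-/-, and both ranges overlap those of Y3. Gfi1b read 3.64, 3.83 and 3.68 there, between WT and Y3, and its difference from Y3 of -0.73 did not pass (adjusted p = 0.308). H2-Aa at 6.32, 5.96 and 5.84 lay 1.25 above Y3 without passing (adjusted p = 0.308). The 101 genes were chosen on the same WT and Y3 arrays. The share of all tested genes that passed in the comparisons with Y3/CD103-/- is not given here, so the counts have no background beside them. The comparisons share arrays, so these are levels side by side and no independent repeat.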

How the data were processed

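RNA of sorted gut Tregs was amplified and biotin-labelled for Affymetrix mouse Gene ST2.0 arrays, 3 per genotype, per the labels' protocols. The values used are log2 signals that the authors deposited after RMA, per the submitters' processing notes. The sources used here give neither the version and settings of RMA nor a genome build. Of 39137 features 23521 carried exactly 1 gene, 1814 several and 13802 none, from the platform annotation, and the table held 0 columns of other samples. The brightest feature stood for each gene, and a gene was tested when it exceeded its array's median on at least 3 of 9 arrays.

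All 9 arrays were fitted in 1 model of group means with limma 3.58.1 in R 4.3.3 (10.8 degrees of freedom), 2-sided, with Benjamini-Hochberg adjustment over the 12792 genes tested. A gene was said to rise or fall at an adjusted p under 0.05. For the median gene the 95% interval reached 0.447 to either side, a precision limited by the number of arrays. Tested on simulated data for Y3 versus WT (12792 genes with the real means and spreads), the fit found 59% of simulated 2-fold changes and 94% of 4-fold ones and made 12 false calls. Simulated arrays varied independently, with equal spread and no shift of a whole array. The real Y3 arrays 1 and 3 were more alike (0.984) and had raised medians, so these rates need not hold for the real comparison.

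Surface, signalling, transcription and metabolic genes came from 54 lists with 4795 genes on the array, 3158 of them tested. A gene of several classes (33 genes) was counted once, in the order transcription, signalling, surface, metabolism, while a list keeps all its members. The members and lists were chosen with earlier results of these data known. The result of 1 signalling list is not reported here. Named genes were Il2rb, Il2ra, Foxp3 and Itgae, called genes in order of p within each class (values per array for the first 8, differences for up to 12 more), up to 3 members of smallest p in lists with no call, up to 20 called genes in no class, and markers of other cells. Predicted genes, small RNAs and antigen, olfactory or vomeronasal receptors were counted and not named. Alternatives changed the filter, the feature rule, the scaling, the arrays in the fit, the variance model, array weights and the replicate block, and left out each array. The Y3 arrays 1 and 3 averaged and the epithelial marker mean as a covariate were chosen after seeing the data. The replicate numbers were not taken to pair arrays, since deviations of same-numbered WT and Y3 arrays correlated at 0.11, -0.04 and 0.05.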

Additional observations from a re-analysis of the deposited data

Results flagged for a closer look

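Among array features paired with several genes or with none, which the comparison of genes does not use, 6 passed in limma at an adjusted p under 0.05 when all features were tested together. None of the 1060 tested features with several genes passed in limma, and 119 of them had an unadjusted p under 0.05. Of 7149 tested features with no gene 4 were higher and 2 lower in Y3, 0.0839% of them, beside 10 higher and 1 lower among 13561 features with 1 gene (0.0811%). The feature of smallest p read 3.06, 3.24 and 3.05 in WT and 4.89, 5.09 and 5.61 in Y3, a difference of 2.08 (adjusted p = 0.0253). The 2 lower features held identical values on every array, 3.53, 4.10 and 3.21 in WT and 1.98, 1.59 and 1.90 in Y3, and so give 1 measurement.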

How the results depend on the processing

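The counts of genes called depended on the fit, while none of the 101 called genes changed sign in any of the fits run. In fits that left out or averaged arrays no sign could change, since the groups did not overlap. Against 101 called genes (79 higher, 22 lower, 19 surface, 13 signalling, 8 transcription and 9 metabolic), 52 were called without the filter on dim genes (39 and 13, with 8 signalling, 2 transcription and 4 metabolic), where 22180 genes were tested. Quantile normalization gave 46 higher genes and 32 lower of 78, and centring each array on its median 46 higher and 54 lower of 100. The median over all tested genes was 0.15 as deposited, 0.04 and -0.02 under these scalings. With the 6 WT and Y3 arrays alone there were 63 calls, 46 of them higher, with 4 transcription and 3 metabolic. A variance trend with robust prior gave 346 (268 higher, 78 lower, 49 surface, 38 signalling, 30 transcription, 33 metabolic) and array weights 346 (267 higher, 79 lower, 40 surface, 38 signalling, 28 transcription, 32 metabolic). With the replicate block, for numbers that share no more than a number, there were 54 calls (44 higher, 10 lower, 12 surface, 2 transcription, 5 metabolic), 53 of them among the 101. With Y3 arrays 1 and 3 averaged there were 12 (11 higher, 1 lower, 3 surface, 1 signalling, 0 transcription, 0 metabolic), and with the epithelial marker mean as a covariate 10 (7 higher, 3 lower, 4 surface, 2 signalling, 0 transcription, 0 metabolic). For the 0 counts, 1327 and 1490 genes in all lay at an unadjusted p under 0.05 in these fits. Leaving out 1 array at a time gave 8 to 119 calls, 7 to 79 higher, 1 to 40 lower, 2 to 23 surface, 1 to 14 signalling, 0 to 9 transcription and 0 to 11 metabolic genes. The lowest counts came without Y3 array 3 and the highest number of calls without WT array 1. A filter of 6 arrays (130 calls) and the mean of a gene's features stayed within 1.5 times. Where no construction explains a change, the cause was not tested. Of the values of 173 named genes over all fits 1 reversed, that of Foxp3, at -0.028 with centring. Of the others 2518 kept direction and side of the threshold, 839 lost the call and 88 gained it. In 5 risen genes (Cd46, Klk1b27, C2cd4b, Hells and Zfp101) all WT arrays, and in 4 fallen genes all Y3 arrays lay at or under the array median, so that signal over background limits these differences. These genes met the filter on dim genes only through arrays outside their lower group, so the filter itself favoured their direction.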
